A study of Mus musculus with 12 samples.

Results

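The 9 genes described here encode proteins by which eosinophils are recognised: the granule proteins Prg2, Prg3 and Epx, the eosinophil-associated ribonucleases Ear1, Ear2 and Ear6, the surface receptors Siglecf and Il5ra, and the lipid enzyme Alox15. They were taken by symbol from a gene count table of bulk RNA-seq, and all 9 were found among its 18467 genes. The question was whether macrophages sorted partly on CCR3, the eotaxin receptor that eosinophils also carry, contained eosinophil RNA. The table covers 4 groups of 3 libraries, each from different mice. All mice were female Albino B6. Metastatic marrow came from animals given E0771 breast cancer cells through the caudal artery at 8 weeks of age, and normal marrow came from healthy controls, whose age the labels do not give. General macrophages were live single marrow cells sorted on F4/80 and CD11b. Niche macrophages were sorted on VCAM1, CD163 and CCR3, and the series text calls them niche-specific although their sample titles say general. The columns of the niche libraries from normal marrow do not carry the numbers of the sample titles, so these libraries are named A, B and C here. Libraries of the other groups are named 1, 2 and 3. No source used here gives the purity of either sort or the number of mice pooled in a library.

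Eosinophils are granulocytes that mature in the bone marrow under interleukin 5, leave it for the blood and enter tissues along gradients of eotaxins, the ligands of CCR3. Their granules hold major basic protein in a crystalline core and eosinophil peroxidase and ribonucleases in the matrix around it, and the transcripts of these proteins are most abundant in eosinophil progenitors. Siglec-F, an inhibitory receptor that binds sialic acid, and the interleukin 5 receptor mark the cell surface. Some of these markers are shared with other cells: alveolar macrophages carry Siglec-F, some monocytes express Ear2, and some tissue macrophages express the lipoxygenase Alox15.

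The mouse eosinophil ribonucleases are recent gene duplicates, and the sequences just before the starts of Ear1, Ear2 and Ear6 are shown to describe how alike these genes are. They lie before the RefSeq starts, so their likeness does not show whether reads of the genes can be told apart. The start regions of Prg3 and Epx, granule genes whose counts differed in the niche libraries, are shown beside them. Each is the stretch of 250 bases that ends at the base before the gene's start, written 5′ to 3′ on the gene's own strand, from the RefSeq promoter table on GRCm38.p6, which held 7 of the 9 genes (not Prg2 and Alox15). Capitals mark GATAA or its reverse complement TTATC, a core that GATA factors bind.
Prg3, chr2:84987965-84988214, plus strand: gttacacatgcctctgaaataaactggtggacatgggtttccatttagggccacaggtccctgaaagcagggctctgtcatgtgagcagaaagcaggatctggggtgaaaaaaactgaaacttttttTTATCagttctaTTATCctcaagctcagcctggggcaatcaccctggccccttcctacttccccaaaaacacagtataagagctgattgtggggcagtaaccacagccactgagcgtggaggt
Epx, chr11:87875537-87875786, minus strand: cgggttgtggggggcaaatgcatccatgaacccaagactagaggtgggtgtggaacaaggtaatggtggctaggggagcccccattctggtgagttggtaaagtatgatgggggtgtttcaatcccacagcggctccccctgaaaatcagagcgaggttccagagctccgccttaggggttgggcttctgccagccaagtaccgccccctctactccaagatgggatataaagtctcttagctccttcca
Ear1, chr14:43819640-43819889, minus strand: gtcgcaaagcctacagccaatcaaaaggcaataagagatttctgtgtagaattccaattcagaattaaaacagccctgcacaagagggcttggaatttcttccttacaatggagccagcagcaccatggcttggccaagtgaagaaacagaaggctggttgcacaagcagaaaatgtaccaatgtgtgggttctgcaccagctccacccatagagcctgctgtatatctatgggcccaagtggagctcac
Ear2, chr14:44102404-44102653, plus strand: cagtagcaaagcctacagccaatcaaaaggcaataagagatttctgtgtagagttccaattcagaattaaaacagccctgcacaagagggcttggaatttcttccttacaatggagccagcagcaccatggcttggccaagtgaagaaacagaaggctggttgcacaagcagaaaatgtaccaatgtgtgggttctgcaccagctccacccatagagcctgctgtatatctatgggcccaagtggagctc
Ear6, chr14:51853518-51853767, plus strand: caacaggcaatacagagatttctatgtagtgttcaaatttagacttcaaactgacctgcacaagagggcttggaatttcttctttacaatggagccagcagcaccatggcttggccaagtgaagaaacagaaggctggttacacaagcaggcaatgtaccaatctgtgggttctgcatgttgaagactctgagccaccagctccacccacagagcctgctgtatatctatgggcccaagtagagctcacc
The Ear1 and Ear2 stretches were identical at 246 of 248 aligned bases (99.2%), Ear1 and Ear6 at 212 of 229 (92.6%), and Ear2 and Ear6 at 211 of 227 (93%). Prg3 held TTATC at 123 and 111 bases before its start. Of the other matched genes, only Il5ra held the motif (GATAA at 73 bases before the start). Among all 32851 promoters of that source, 22.6% held GATAA on either strand in a window of this length, and a match describes letters only.

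In GENCODE M21 annotation of GRCm38 the 9 genes lie on 5 chromosomes, and all are protein coding. Prg2 (chr2:84980461-84983632) and Prg3 (chr2:84988215-84993886) are neighbours on the plus strand. Ear1 (chr14:43818765-43875517, minus strand), Ear2 (chr14:44102654-44103534, plus strand) and Ear6 (chr14:51853699-51854643, plus strand) share chromosome 14. Epx (chr11:87864000-87875536) and Alox15 (chr11:70344152-70352031) lie on the minus strand of chromosome 11, Siglecf (chr7:43351341-43359531) on the plus strand of chromosome 7, and Il5ra (chr6:106710357-106749037) on the minus strand of chromosome 6. RefSeq places the starts of Ear1 and Ear6 away from the ends of these GENCODE spans, so the printed stretches do not abut them. The values are counts over whole genes and do not separate exons from introns.

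Totals ran from 13688000 to 30332400 expected counts per library, so that 3 counts, used here as the floor, stood for 0.109 to 0.243 CPM (counts per 1000000, with library sizes scaled by the trimmed mean of M values, TMM). Spread between libraries of a group was wide: the common biological coefficient of variation was 1.30. It was 0.924 for Prg2, 0.920 for Epx and between 1.28 and 2.08 for the other 6 tested eosinophil genes. Many genes went from the floor or below in one library to 100 or more counts in another of the same group, in 18.8% to 31.5% of the tested genes that reached 100 in that group. Among the 9 genes this held for 1 of the 7 that reached 100 in general macrophages of normal marrow, 1 of 9 in those of metastatic marrow, 4 of 5 in niche macrophages of normal marrow and 6 of 7 in those of metastatic marrow. As a check of the labels, the summed resident macrophage markers were 6990 to 8347 CPM in niche libraries of normal marrow and 3023 to 5641 CPM in those of metastatic marrow, against 345 to 569 CPM in the 6 general libraries. This list holds Vcam1 and Cd163, on whose proteins the niche cells were sorted, so the sort itself fixed part of the difference. Their means in niche libraries of normal marrow were 2161 and 795 CPM. The general libraries held 16358 to 27693 CPM of secondary granule and mature neutrophil genes and the niche libraries 11077 to 13959 CPM. p-values below measure the spread between mice or mouse pools within a group.

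Transcripts of all 3 granule proteins were above the floor in every library of general macrophages. Prg2, which encodes the major basic protein of the granule core, was at 97.8, 68.5 and 86.3 CPM in general libraries 1, 2 and 3 of normal marrow and at 107.7, 44.2 and 69.0 CPM in those of metastatic marrow. In niche macrophages it was at 0.162, 17.7 and 0.301 CPM in libraries A, B and C of normal marrow and at 23.2, 7.47 and 29.3 CPM in libraries 1, 2 and 3 of metastatic marrow. All 6 niche libraries were therefore below all 6 general libraries, and in normal marrow library B alone carried more than 6 Prg2 counts. The difference between niche and general macrophages of normal marrow was a log2 fold change of -3.79 ± 1.24 (SE, 3 against 3 libraries, 13.8-fold lower), which did not pass edgeR's quasi-likelihood test after Benjamini-Hochberg adjustment over all 12882 tested genes (adjusted p = 0.133). Without library B it was -8.43, with an edgeR adjusted p of 0.000307. Library B held the highest Prg2 value of its group, so its removal enlarges such differences by construction and is no separate test. DESeq2 on all libraries gave -3.84 with an adjusted p of 0.00498. In metastatic marrow the difference was smaller, -1.88 ± 1.14 (edgeR adjusted p = 0.777). The metastatic minus normal difference was -0.19 ± 1.11 in general and 1.71 ± 1.14 in niche macrophages (edgeR adjusted p = 1 and 0.553), and without library B the second became 6.35 (edgeR adjusted p = 0.00961).

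Prg3, the gene of a second major basic protein, was present in the same general libraries as Prg2, and the order of the libraries was not the same. It was at 12.1, 8.90 and 3.70 CPM in normal marrow and at 3.39, 4.20 and 6.62 CPM in metastatic marrow. In niche macrophages it had a count of 0 in all 3 libraries of normal marrow, and in metastatic marrow it had counts of 0, 1 and 98, so a single library held it. Against the floor of 3 counts in each niche library, Prg3 was at least 45.4-fold lower in niche than in general macrophages of normal marrow (edgeR adjusted p = 0.167; DESeq2 adjusted p = 0.00393). Within niche macrophages the Prg3 mean was at least 6.75-fold higher in metastatic marrow, with all but 1 of its counts from library 3 (edgeR adjusted p = 0.381). The niche minus general difference in metastatic marrow was -1.95 ± 2.51 and the metastatic minus normal difference in general macrophages -0.79 ± 2.44 on the log2 scale (edgeR adjusted p = 1 for both).

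Epx, the gene of the eosinophil peroxidase that makes oxidants from bromide, did not share this pattern. It was at 82.8, 24.5 and 27.3 CPM in general libraries of normal marrow and at 60.0, 24.1 and 25.7 CPM in those of metastatic marrow. In niche macrophages of normal marrow it was at 55.8, 66.6 and 81.7 CPM, while in those of metastatic marrow it was at 15.7, 0.0437 and 17.0 CPM, where the second value is 1 count. In normal marrow the niche and general ranges overlapped, at 68.0 ± 13.03 and 44.9 ± 32.9 CPM (mean ± SD, n = 3 each), with a log2 difference of 0.60 ± 1.10 (SE, edgeR adjusted p = 0.870). Niche libraries A and C thus held 687 and 1627 Epx counts beside 2 and 6 Prg2 counts. In metastatic marrow every niche library was below every general library, with a log2 difference of -1.74 ± 1.13 (edgeR adjusted p = 0.840). Within niche macrophages Epx was lower in metastatic than in normal marrow in all 3 libraries, by -2.64 ± 1.17 (edgeR adjusted p = 0.381), and in general macrophages the difference was -0.29 ± 1.10 (edgeR adjusted p = 1).

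**Figure D1:**
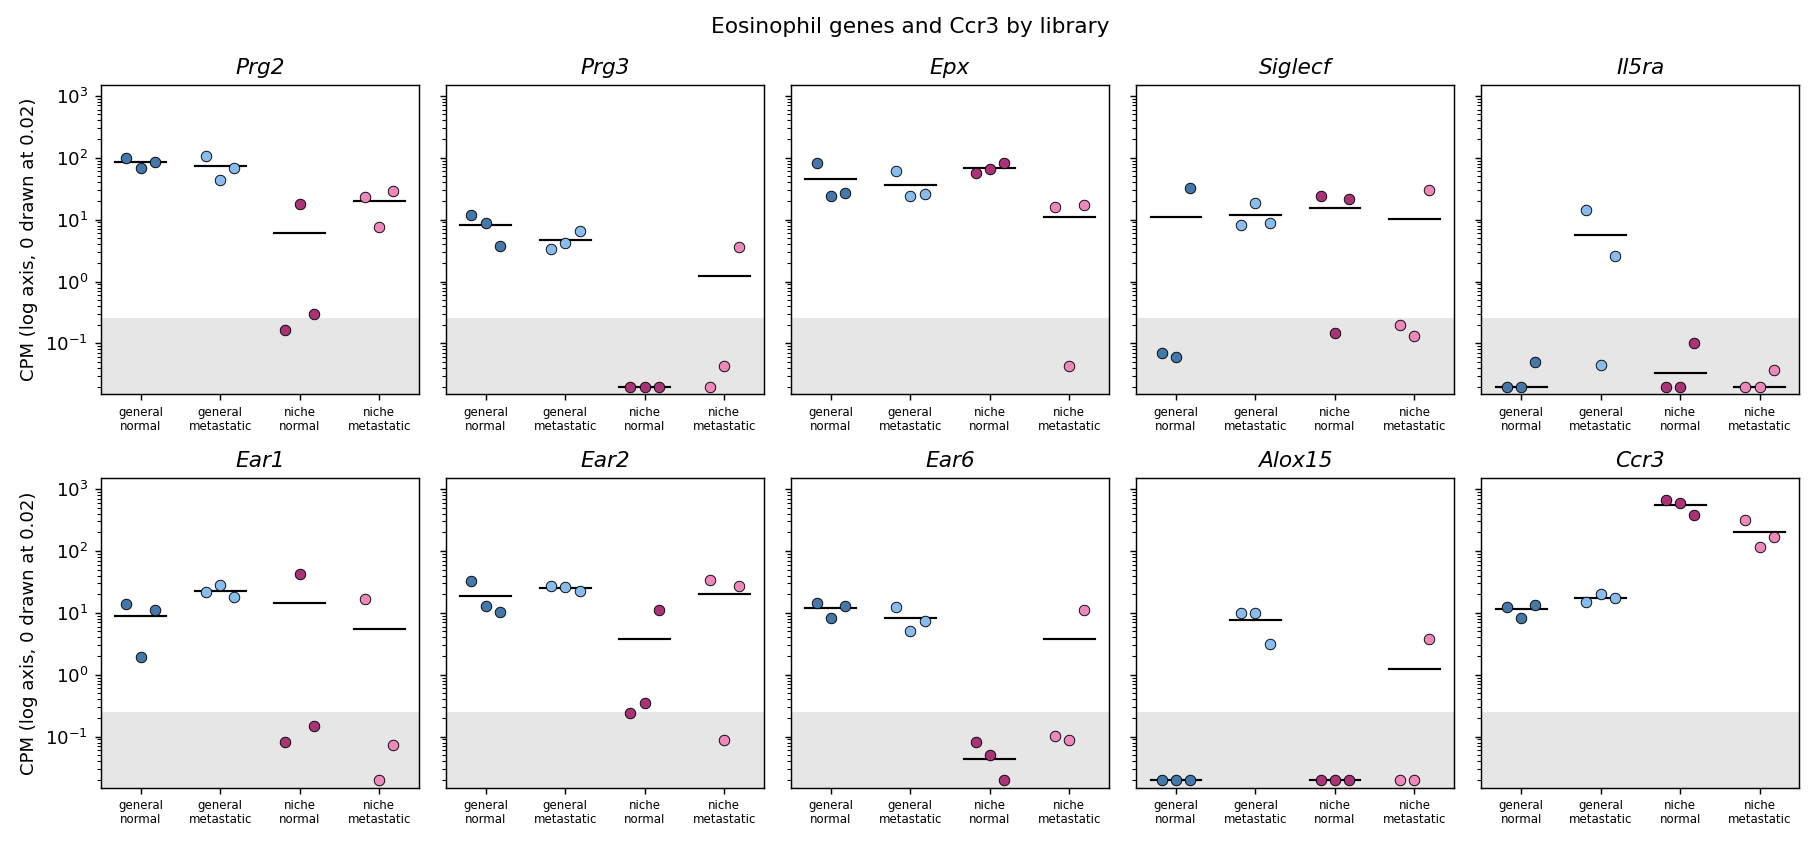
Level of each of the 9 eosinophil genes and of Ccr3 in CPM on a log axis, by group, with 1 point per library, a bar at the group mean, 0 drawn near the foot of the axis and a grey band for levels up to 0.243 CPM, the highest that 3 counts stood for. Prg2, Prg3, Epx, Ear1, Ear2 and Ear6 sat above the band in all 6 general libraries, Epx in 11 of all 12 libraries, and Ccr3 was far higher in the niche libraries.

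Since counts of different genes depend on transcript length, levels were compared between genes per kilobase of exon. Prg2 then stood at 100.5 CPM per kilobase in general macrophages of normal marrow and at 87.9 in those of metastatic marrow, above all other 8 genes. In niche macrophages of normal marrow Prg2 stood at 7.24 CPM per kilobase and Epx at 24.9. The order was reversed in those of metastatic marrow, with 23.9 for Prg2 and 3.99 for Epx. Within niche macrophages of normal marrow Prg2 ran from 0.194 CPM per kilobase in library A to 21.2 in library B, while Epx stayed between 20.4 and 29.8.

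The ribonucleases are enzymes of the ribonuclease A superfamily stored in the granule matrix. Ear1 was at 13.9, 1.96 and 11.1 CPM in general libraries of normal marrow and at 22.0, 27.7 and 17.7 CPM in those of metastatic marrow. In niche macrophages it was high in 1 library of each marrow: 43.0 CPM in library B of normal marrow and 16.5 CPM in library 1 of metastatic marrow, the other 4 libraries holding 0 to 3 counts. The general ranges of the marrow states did not overlap, but the log2 difference of 1.33 ± 2.21 was within its standard error (edgeR adjusted p = 1). Niche against general, Ear1 gave 0.68 ± 2.19 for normal marrow and -2.03 ± 2.26 for metastatic marrow (edgeR adjusted p = 0.937 and 1). The first value changed sign without library B, to -6.18. Within niche macrophages the metastatic minus normal difference of Ear1 was -1.39 ± 2.22 (edgeR adjusted p = 0.927), and without library B it was 5.48.

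Ear2 was at 33.2, 13.1 and 10.2 CPM in general libraries of normal marrow and at 27.4, 26.3 and 22.7 CPM in those of metastatic marrow. In niche macrophages it was at 0.243, 0.348 and 10.9 CPM in libraries A, B and C and at 33.4, 0.0874 and 26.9 CPM in libraries 1, 2 and 3 of metastatic marrow. Niche libraries of metastatic marrow that held Ear2 were thus at the level of the general ones. The log2 difference between niche and general macrophages was -2.29 ± 1.74 for normal and -0.34 ± 1.66 for metastatic marrow (edgeR adjusted p = 0.520 and 1). The metastatic minus normal difference of Ear2 was 0.44 ± 1.66 in general and 2.38 ± 1.74 in niche macrophages (edgeR adjusted p = 1 and 0.618). Niche library C decided the values that involve niche macrophages of normal marrow, which without it were -5.95 against general and 6.05 for metastatic against normal niche macrophages.

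Ear6 was at 14.7, 8.13 and 13.1 CPM in general libraries of normal marrow and at 12.5, 5.11 and 7.43 CPM in those of metastatic marrow. Niche libraries A, B and C of normal marrow had 1, 1 and 0 Ear6 counts, and niche libraries 1, 2 and 3 of metastatic marrow had 2, 2 and 300, library 3 being the same library that held Prg3. Summed over libraries, 614 counts in general and 2 counts in niche macrophages of normal marrow gave a ratio of 312.5 with an exact 95% counting interval of 86.1 to 2586. The fitted log2 difference was -7.97 ± 2.95 (edgeR adjusted p = 0.195; DESeq2 adjusted p = 0.00108). Metastatic against normal niche macrophages, the 304 and 2 counts gave a ratio of 114.1 (31.3 to 946.6), with a fitted log2 difference of 6.30 ± 2.74 (edgeR adjusted p = 0.381; DESeq2 adjusted p = 0.0241). For Ear6 the niche minus general difference in metastatic marrow was -1.15 ± 2.18, and the metastatic minus normal difference in general macrophages -0.52 ± 2.16 (edgeR adjusted p = 1 for both). Counting intervals cover counting error only, and library 3 alone supplied 300 of the 304 counts.

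The ribonuclease genes were alike in the printed start regions and somewhat less so in their transcripts, from which the reads come. Ear1 and Ear2 transcripts were identical at 690 of 713 aligned bases (96.8%), and 23.8% of the 50-base windows of Ear1 occurred unchanged in Ear2. Identity to Ear6 was 88.8% for Ear1 and 89.2% for Ear2, while Prg2 and Prg3 shared 67.3%. In 5 of 12 libraries the expected counts of Ear1 and Ear2 were not whole numbers, within a tolerance of 0.01, whereas their sum was whole in all 12, so reads had been divided between them. Their separate values are therefore uncertain, and the sum was also examined. For normal marrow Ear1 plus Ear2 stood at 27.8 ± 17.0 CPM (general) and 18.3 ± 22.4 CPM (niche), and for metastatic marrow at 48.0 ± 6.95 and 25.6 ± 24.9 CPM (mean ± SD, n = 3 each). The niche minus general log2 difference of the sum was -0.61 ± 1.41 in normal and -0.90 ± 1.42 in metastatic marrow (edgeR adjusted p = 0.907 and 1). The sum still ranged from 0.325 to 43.3 CPM among niche libraries of normal marrow.

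**Figure D2:**
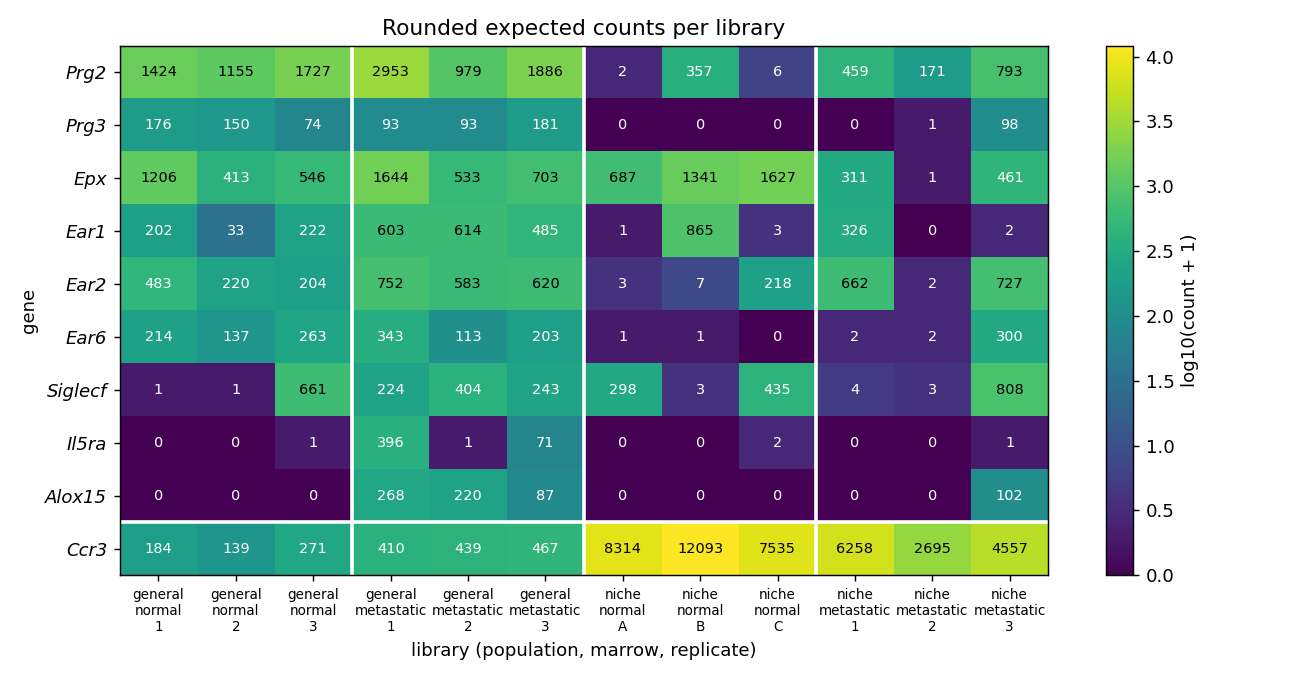
Rounded expected counts of the 9 genes and Ccr3 (vertical axis) in the 12 libraries (horizontal axis), with colour giving log10 of the count plus 1 and the count printed in each cell. Niche libraries mix counts near 0 with counts above 100, and a different set of genes is high in each.

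The surface receptors and Alox15 were uneven across groups: of their 9 values per group (3 genes in 3 libraries), 8 were above the floor in general macrophages of metastatic marrow, 1 in those of normal marrow, and 2 and 3 in niche macrophages of normal and metastatic marrow. Siglecf, the gene of Siglec-F, was at 0.0687, 0.0593 and 33.0 CPM in general libraries of normal marrow and at 8.17, 18.3 and 8.89 CPM in those of metastatic marrow. In niche macrophages it was at 24.2, 0.149 and 21.8 CPM in libraries A, B and C and at 0.202, 0.131 and 29.9 CPM in libraries 1, 2 and 3 of metastatic marrow. General libraries 1 and 2 of normal marrow thus held 1 Siglecf count each beside 1424 and 1155 Prg2 counts, and niche library A held 298 Siglecf counts beside 2 Prg2 counts. The niche minus general log2 difference was 0.48 ± 2.24 in normal and -0.23 ± 2.23 in metastatic marrow (edgeR adjusted p = 0.962 and 1). General library 3 of normal marrow decided the first value, which was 7.79 without it. The metastatic minus normal difference of Siglecf was 0.09 ± 2.23 in general and -0.61 ± 2.24 in niche macrophages (edgeR adjusted p = 1 and 0.984), and without that library the first of these was 7.40.

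Il5ra, the alpha chain of the interleukin 5 receptor and the chain that binds the cytokine, was the 1 gene of the 9 that did not pass the filter on low counts. It had counts of 396, 1 and 71 in general libraries of metastatic marrow and of 0 to 2 in the other 9 libraries. The 468 counts in general macrophages of metastatic marrow against 1 count in those of normal marrow gave a ratio of 313.2 with an exact 95% counting interval of 55.9 to 12396. Against 1 count in niche macrophages of metastatic marrow the ratio was 424.6 (75.8 to 16807). No fold is given for niche against general macrophages of normal marrow or for metastatic against normal niche macrophages, since both groups were at or under the floor. With no filter on low counts, the differences with a ratio had edgeR adjusted p-values of 0.567 and 0.430.

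Alox15, which oxidises arachidonic acid, had counts of 268, 220 and 87 in general libraries of metastatic marrow, corresponding to 9.78, 9.94 and 3.18 CPM. It had a count of 0 in all 6 libraries of normal marrow and counts of 0, 0 and 102 in niche libraries of metastatic marrow. General libraries of metastatic marrow were thus the 1 group in which every library held it. Against the floor in the general libraries of normal marrow Alox15 was at least 42.9-fold higher, with an edgeR adjusted p of 0.944. The niche minus general difference in metastatic marrow was -2.60 ± 2.80 on the log2 scale (edgeR adjusted p = 1), and metastatic niche macrophages were at least 6.94-fold above the floor of the normal ones, all of it from library 3 (edgeR adjusted p = 0.389). No fold was given for normal marrow, where both populations were at 0.

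Ccr3, the sorting antigen that prompted the question, had levels of 12.6, 8.25 and 13.5 CPM in the general libraries of normal marrow beside 674.7, 601.0 and 378.3 CPM in the niche ones. For metastatic marrow the levels were 15.0, 19.8 and 17.1 CPM beside 316.0, 117.8 and 168.4 CPM. Niche macrophages were higher by 5.59 ± 0.44 and 3.54 ± 0.40 on the log2 scale (edgeR adjusted p = 3.478e-07 and 3.705e-05), and CCR3 was used to sort them. Per kilobase of exon, its level exceeded that of each of the 9 genes in 6 of 6 niche libraries. In the 6 general libraries it exceeded Prg2, Epx, Ear1 and Ear2 in 0, Ear6 in 1, Prg3 in 3, Siglecf in 4, and Il5ra and Alox15 in 6. On that scale the Ccr3 mean was 168.5 CPM for niche and 3.51 for general macrophages of normal marrow, against 7.24 and 100.5 for Prg2. In these bulk samples fewer cells of a type and less RNA per cell cannot be told apart.

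**Figure D3:**
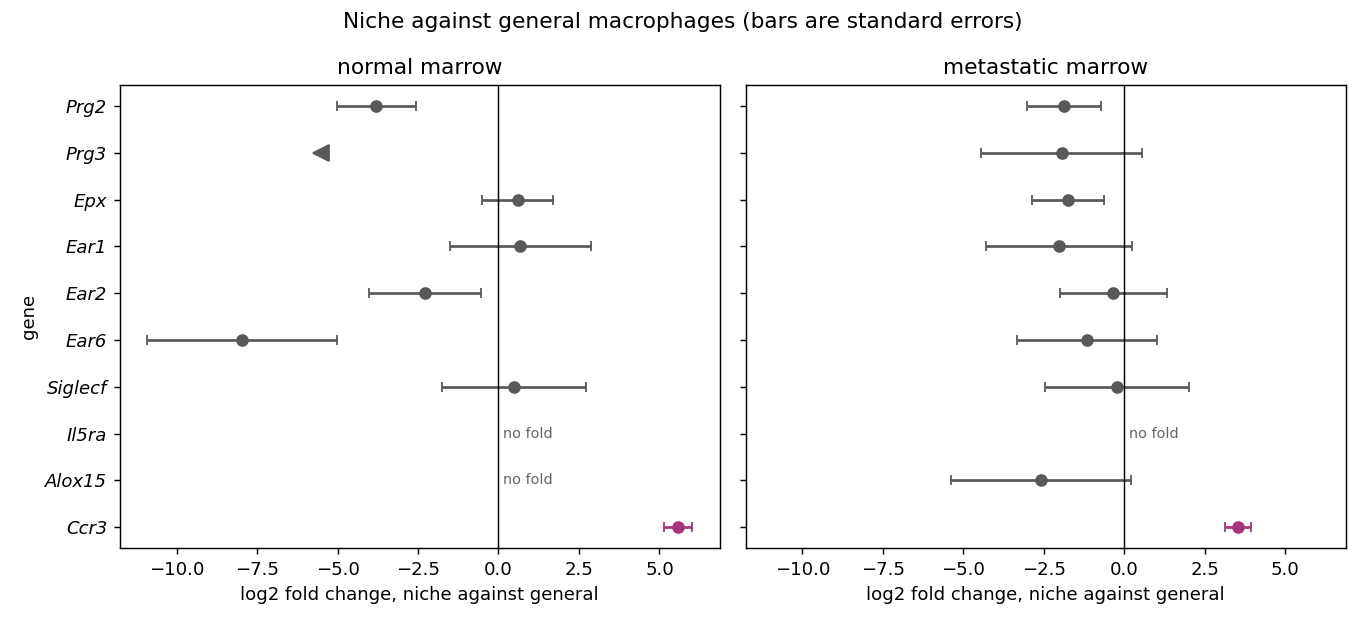
Log2 fold change of niche against general macrophages (horizontal axis) for each gene in normal and in metastatic marrow, with the standard error as a bar and a triangle at the bound of at least 45.4-fold lower for Prg3. Only Ccr3, in purple, passed the adjusted threshold, and Prg2 lies below 0 in both panels.

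Niche against general macrophages of normal marrow, 0 of the 8 tested eosinophil genes passed edgeR's adjusted threshold of 0.05, where 2.47% of all tested genes did. By unadjusted p 3 of the 8 were under 0.05 (Prg2, Prg3 and Ear6, all lower in niche), against 19% of all tested genes. DESeq2 called these 3, beside 15.4% of the genes to which it gave an adjusted p, and limma-voom called 0, beside 1.44% of all tested genes. Ranges did not overlap for the same 3 genes, lower in niche, beside 8.78% of all tested genes, and for 0 genes higher in niche, beside 10%. The median log2 fold change of the 7 tested genes with a fold was -2.29, beside 0.19 over all tested genes. The eosinophil genes summed to 80.5 to 128 CPM in niche and 125 to 255 CPM in general libraries, and Epx supplied most of the sum in all 3 niche libraries.

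In metastatic marrow 0 of the 8 tested genes passed edgeR's adjusted threshold, where 0.831% of all tested genes did, 0 were under an unadjusted p of 0.05, against 8.6% of all tested genes, and DESeq2 and limma-voom called 0, beside 4.05% and 1.38% of all genes. All 8 fold changes were negative, with a median of -1.81 beside 0.04 over all tested genes. Ranges did not overlap, lower in niche, for 4 of the 9 genes, beside 8.85% of all tested genes. These were Prg2, Epx, Ear1 and Il5ra, the last resting on 1 count in general library 2. None was higher in niche without overlap, beside 8.34%. The genes summed to 89.1, 7.87 and 122 CPM in niche libraries 1, 2 and 3 and to 160 to 265 CPM in general libraries. Niche library 2 had only Prg2 above the floor, and library 3 had 7 of the 9 genes above it.

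Metastatic against normal marrow, 0 of the 8 tested genes passed edgeR's adjusted threshold in general macrophages, where 0.0155% of all tested genes did. By unadjusted p 1 of the 8 was under 0.05 (Alox15), against 5.12% of all tested genes, and DESeq2 and limma-voom called 0, beside 1.19% and 0.179% of all genes. Ear1 and Alox15 were higher in metastatic marrow without overlap, beside 7.27% of all tested genes, and 0 were lower, beside 5.64%. The genes above the floor numbered 9, 8 and 9 in the metastatic and 6, 6 and 7 in the normal libraries, while the summed levels overlapped (160 to 265 against 125 to 255 CPM). The median log2 fold change was -0.05, beside -0.01 over all tested genes. The general libraries of metastatic marrow were also the deepest, with 24278100 to 30332400 counts against 15042000 to 20777200.

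In niche macrophages 0 of the 8 passed edgeR's adjusted threshold, where 0.00776% of all tested genes did. By unadjusted p 4 were under 0.05, Prg3, Ear6 and Alox15 with higher values in metastatic marrow and Epx with lower ones, against 12.7% of all tested genes. DESeq2 called 1 (Ear6), beside 8.06% of the genes to which it gave an adjusted p, and limma-voom called 0, beside 0.0854% of all tested genes. Ranges did not overlap for Ear6, higher in metastatic marrow, beside 5.63% of all tested genes, and for Epx, lower in metastatic marrow, beside 7.11%. For Ear6 the lowest metastatic library had 2 counts and the highest normal library 1. The median log2 fold change was 2.05, beside -0.17 over all tested genes. Whether the metastasis difference itself differed between niche and general macrophages was tested as an interaction, in which 0% of all tested genes passed edgeR's threshold. Among the 8 tested eosinophil genes the smallest adjusted p was 0.625 (Prg3), 1 of the 8 had an unadjusted p under 0.05, against 7.89% of all tested genes, and DESeq2 and limma-voom called 0, beside 3.46% and 0% of all genes. The interaction was 1.91 ± 1.58 for Prg2, -2.34 ± 1.57 for Epx, -2.71 ± 3.13 for Ear1, 1.95 ± 2.36 for Ear2, 6.82 ± 3.37 for Ear6 (with 2 counts in 1 of its groups) and -0.70 ± 3.16 for Siglecf on the log2 scale. No value is given for Prg3 and Alox15, which had groups at 0, or for Il5ra, which was not tested. These comparisons share libraries, since each group enters a population and a metastasis comparison. Without niche library B of normal marrow, edgeR called Prg2 in the niche metastasis comparison and in the interaction (6.54, adjusted p = 0.0340). That library held the highest Prg2 value of its group, so its removal raises both values by construction.

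Other genes of the eosinophil programme were examined by fixed lists. Their counts, given for normal and then metastatic marrow, stand beside the shares of all genes given above: 19% and 8.6% were under an unadjusted p of 0.05, and DESeq2 called 15.4% and 4.05%. Of 9 surface and mediator genes in the table, 8 were tested, and niche against general macrophages Ccr3 was higher in both marrow states and Alox5ap, which hands arachidonic acid to 5-lipoxygenase, was lower in metastatic marrow (-1.58 ± 0.36, edgeR adjusted p = 0.0411). The list medians were -0.07 and -0.08, with 4 positive and 4 negative values in each. Cysltr1, which edgeR did not call in normal marrow (-6.90 ± 2.22, adjusted p = 0.125), had 1 to 3 counts in every niche library and 147 to 735 in the general ones. By unadjusted p 3 and 3 of the 8 were under 0.05, DESeq2 called 2 and 3, and limma-voom 1 and 3. Of the 11 tested genes of interleukin 5 receptor signalling edgeR called 0 in normal and 0 in metastatic marrow, with medians of -0.12 and -0.34. By unadjusted p 3 and 1 of them were under 0.05, DESeq2 called 1 and 0, and limma-voom 0 and 1. Among 12 transcription factors of the lineage, Irf8 was higher in niche macrophages of normal marrow (1.77 ± 0.46, edgeR adjusted p = 0.0478), with list medians of -0.26 and -0.07. By unadjusted p 7 of the 12 were under 0.05 in normal and 2 in metastatic marrow, where edgeR called 0. Those of normal marrow were Cebpa, Cebpe, Id1 and Trib1, lower in niche, and Irf8, Id2 and Zfpm1, higher. Cebpa stood at -6.57 ± 1.76 (edgeR adjusted p = 0.0545). DESeq2 called 5 and 0, and limma-voom 0 and 1. Irf8 is known as a factor of monocytes and macrophages as well.

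The family lists gave few calls. Of the 11 other genes listed for the ribonuclease A family, 4 were in the table and tested, namely Rnase4, Rnase6, Ang and Rnh1. The last encodes the ribonuclease inhibitor and not a member of the family. For these 4 edgeR called 0 in either marrow (medians 0.36 and 1.09), and 1 and 2 were under an unadjusted p of 0.05. DESeq2 called 1 and 1, and limma-voom 0. Of 5 tested Siglec family genes other than Siglecf, Siglec1, the sialoadhesin of marrow macrophages, was higher in niche macrophages of both marrow states (3.69 ± 0.73 and 4.20 ± 0.75, edgeR adjusted p = 0.00778 and 0.00536). Cd33 was lower in those of normal marrow (-0.84 ± 0.20, edgeR adjusted p = 0.0296). The Siglec medians were -0.35 and -0.31. Of the lipoxygenase list, which holds the activating protein gene Alox5ap besides lipoxygenases, Alox5 and Alox5ap were tested and Alox5ap was the 1 called, in metastatic marrow (medians -0.39 and -0.75). Of 2 tested haem peroxidase genes other than Epx, edgeR, DESeq2 and limma-voom called 0 (medians 0.31 and 1.399; 1 and 1 under an unadjusted p of 0.05). Of 2 tested Ccr3 ligand genes these tools called 0 in both population comparisons, and 0 were under an unadjusted p of 0.05 (medians 0.40 and 1.69).

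Markers of the other cells that these sorts could hold moved in different directions, and their part in the eosinophil values was not tested. Niche against general macrophages, edgeR called 6 of 10 secondary granule and mature neutrophil genes lower in normal marrow (led by Camp, S100a8, Mmp9 and Mmp8, list median -1.18) and 5 in metastatic marrow (led by Mmp9, Mmp8, Retnlg and Camp, median -1.06). DESeq2 called 9 and 6 of them, beside 15.4% and 4.05% of all genes, and limma-voom 1 and 3, beside 1.44% and 1.38%. Of 6 primary granule genes edgeR, DESeq2 and limma-voom called 0 in both (medians 0.54 and -0.01; 1 and 1 under an unadjusted p of 0.05). Of 7 classical monocyte genes edgeR called 5 lower in both (led by Fn1, Ccr2, F13a1 and Ly6c2, medians -2.35 and -3.07), DESeq2 called 6 and 6, and limma-voom 3 and 4. Of 8 nonclassical monocyte genes edgeR called Ace lower in normal marrow and called 0 in metastatic marrow (medians -0.98 and -0.12). DESeq2 called 2 and limma-voom 0 of them in normal marrow. For metastatic marrow 1 was under an unadjusted p of 0.05, and DESeq2 and limma-voom called 0. Of 9 tested basophil and mast cell genes, whose cells also carry CCR3, edgeR called 0 in both (medians 1.28 and 0.90; 3 and 1 under an unadjusted p of 0.05; DESeq2 called 2 and 0, limma-voom 0). Their sums were 462 to 635 CPM in niche and 341 to 408 CPM in general libraries of normal marrow, and 243 to 333 against 162 to 244 CPM in metastatic marrow.

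By edgeR, resident macrophage genes were higher in niche macrophages, 10 of 14 in normal marrow (led by Vcam1, Hmox1, Maf and Mrc1, median 4.62) and 9 of 14 in metastatic marrow (led by Vcam1, Maf, Hmox1 and Mrc1, median 4.01). DESeq2 called 11 and 11 of them, and limma-voom 9 and 6. Vcam1 and Cd163 are on this list, and the niche cells were sorted on their proteins. Of 5 sorting antigen genes 4 and 3 were higher (Vcam1, Ccr3 and Cd163 in both, Adgre1 in normal marrow; medians 5.09 and 3.54). Of 5 tested alveolar macrophage genes, a cell type that carries Siglec-F, edgeR called Chil3 lower in normal and Fabp4 higher in metastatic marrow (medians 3.30 and 2.12). DESeq2 called 3 and 1 of these 5, and limma-voom 0 and 2. Of 8 tested erythroid genes edgeR called 3 (Hbb-bs, Hba-a2 and Tfrc) and 1 (Hbb-bs) higher (medians 2.03 and 3.10). DESeq2 called 4 and 1 of these 8, and limma-voom 0 and 1. Of 7 tested B and plasma cell genes edgeR called 3 higher in each (Jchain, Igkc and Ighm, medians 5.12 in both). DESeq2 called 7 and 5 of these 7, and limma-voom 1 and 1. Of 7 tested T and NK cell genes edgeR, DESeq2 and limma-voom called 0 and 0 were under an unadjusted p of 0.05 in both (medians 0.75 and 0.09). In neither metastasis comparison nor in the interaction did edgeR call a gene of any of these lists. There, at most 4 genes of a list were under an unadjusted p of 0.05, and DESeq2 and limma-voom each called at most 3 of a list. All 14 resident macrophage genes had negative values in the niche metastasis comparison (median -0.94, beside -0.17 over all tested genes). Unadjusted p was under 0.05 for 4 of them, against 12.7% of all tested genes. DESeq2 and limma-voom each called 3, beside 8.06% and 0.0854%. For the 5 sorting antigen genes, 3 were under 0.05, DESeq2 called 3 and limma-voom 1.

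**Figure D4:**
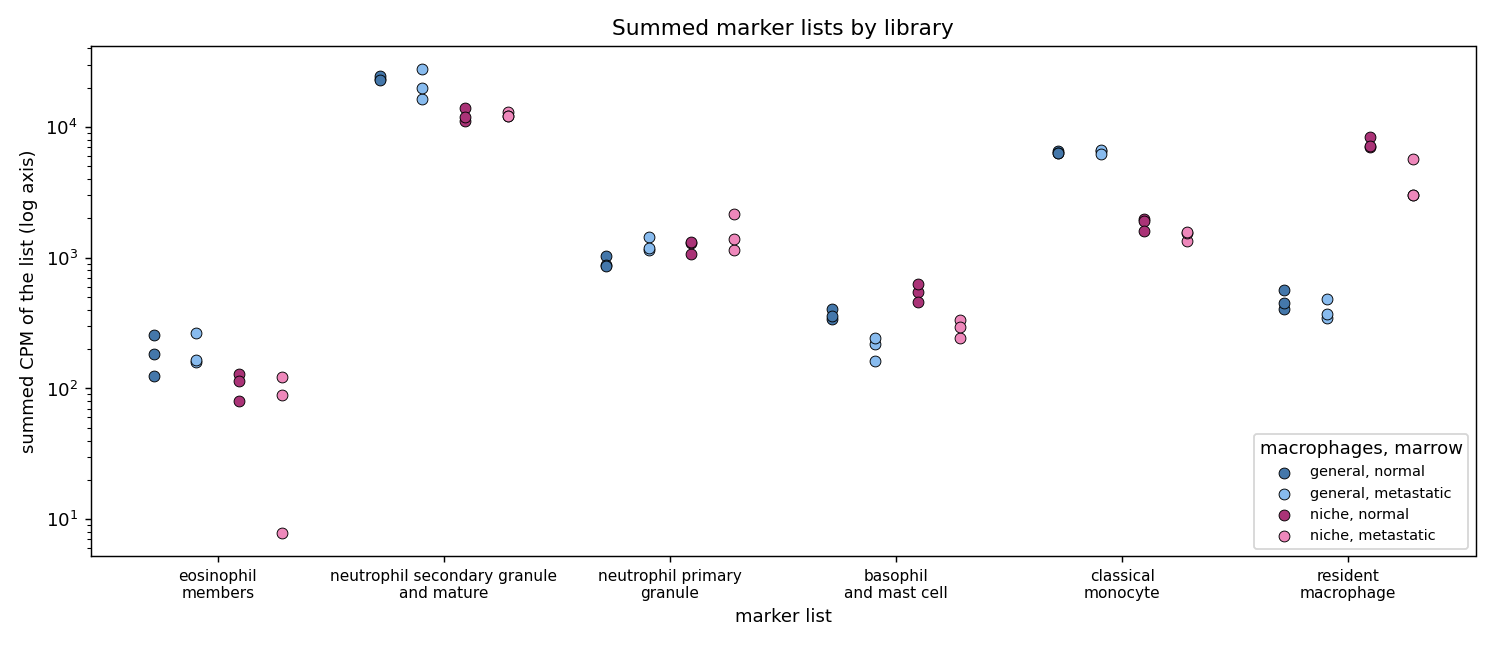
Summed CPM of 6 marker lists (horizontal axis) in each library on a log axis, coloured by group. The eosinophil sum lies between 7.87 and 265 CPM, below the sums of the neutrophil, monocyte and resident macrophage lists in every library.

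The genes whose log2 CPM was most like that of the most abundant gene of each class were named from the 8140 tested genes that averaged 10 CPM or more, by Pearson's r over the 12 libraries, which share their 4 groups. For Prg2 they were Cenpi and Gucd1 (r = 0.96 each), Bid (0.96), Paqr7 (0.95) and Stk11 (0.95). For Ear2 they were AA467197, Aurka and Ints14 (0.97 each), Atp10a and Ethe1 (0.95 each). For Siglecf they were Gm48998 (0.94), Ufc1 and Ofd1 (0.89 each), Gltp (0.87) and Icosl (0.83). None of the 15 genes is on the lists of eosinophil genes above.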

How the data were processed

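Gene-level RNA-seq of 12 libraries was analysed from 1 table of expected counts as deposited by the authors, in which 73.9% of values were whole numbers. Per the submitters' processing notes, STAR 2.7.3a, Partek, DESeq2 1.40.2, R 4.3.1 and the mm10 build were used. The counting program, its annotation and its use of strand are not given in the sources used here. Per the labels' protocols, total RNA from sorted cells was depleted of ribosomal RNA. The 9 genes and all lists were chosen with earlier results of these data known.

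Expected counts were rounded and tested with edgeR 4.0.16 in R 4.3.3 (TMM scaling, filterByExpr, quasi-likelihood F-test, 4 group means fitted to 12 libraries, Benjamini-Hochberg over 12882 genes, threshold 0.05). The filter was passed by 8 of the 9 genes. Standard errors are the log2 fold change divided by the square root of F. Folds against a group with no count used a floor of 3 counts per library, and groups with 1 to 3 counts got an exact Poisson ratio of summed counts. All 9 genes are described whether or not they passed. Of each list, called genes are named, at most the 4 with the smallest p-values, and likeness follows the rule stated with it. Cysltr1, the lineage factors under an unadjusted p of 0.05 and the tested genes of the ribonuclease list were named besides, after seeing the data. Alternatives were DESeq2 1.42.0, limma 3.58.1 (voom with quality weights), other scalings, filters and dispersions, a 2-fold minimum, removal of small non-coding RNA genes or of haemoglobin, immunoglobulin and mitochondrial genes, the 6 libraries of a comparison alone, each library left out, and a replicate block. Summing Ear1 and Ear2 was added after seeing the data. No pair of libraries of a group agreed within sampling noise (chi-square per degree of freedom of at least 139.3). Tested on simulated data for niche against general macrophages of normal marrow (12733 genes, spread of the real data), the test recovered 21 of 100 genes with a 4-fold change and 74 of 100 with a 16-fold change.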

Additional observations from a re-analysis of the deposited data

How the results depend on the processing

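The direction of the Prg2, Prg3 and Ear6 differences between niche and general macrophages of normal marrow held under every alternative that gave a value, with adjusted p-values from 0.000307 to 0.318 for Prg2, 0.00393 to 0.312 for Prg3 and 0.00108 to 0.327 for Ear6. The number of eosinophil genes called was 3 there and 1 in the niche metastasis comparison with DESeq2. Leaving out each library gave 0 to 1 called there, in the niche metastasis comparison and in the interaction, the 1 being Prg2 without niche library B of normal marrow each time. Over all genes, calls in normal marrow numbered 318, and 127 with a 2-fold minimum, 163 in the 6 libraries alone, 1825 with DESeq2, 186 with limma-voom and 176 to 402 without 1 library. In metastatic marrow they numbered 107, and 44, 480 and 178 with a 2-fold minimum, DESeq2 and limma-voom, and 66 to 83 without 1 library. In general macrophages the 2 metastasis calls became 0 by library size only or with a 2-fold minimum, 5 with no filter, 141 with DESeq2 and 23 with limma-voom, and 0 without any 1 library. In niche macrophages the 1 call became 0 with RLE scaling, library size only, a 2-fold minimum or the 6 libraries alone, 3 with no filter or with at least 10 counts in every library, 4 with robust dispersion, 2 without small non-coding RNA genes, 954 with DESeq2, 11 with limma-voom and 0 to 66 without 1 library. The interaction gave 410 with DESeq2 and 0 to 16 without 1 library. The Ear1 difference in normal marrow was -2.55 with limma-voom, -0.61 with Ear1 and Ear2 summed (chosen after seeing the data) and -6.18 to 1.27 without 1 library. Within niche macrophages it was 0.49 summed and -8.37 to 5.48 without 1 library, and its interaction -9.70 to 4.15. Siglecf gave -0.11 to 7.79 in normal marrow, -6.09 to 0.35 in metastatic marrow (0.18 by library size only) and -0.49 to 7.40 in the general metastasis comparison without 1 library. Ear2 in metastatic marrow gave -0.92 to 0.24. In the general metastasis comparison Prg2 gave -0.57 to 0.0736, and Epx -0.85 to 0.50 and 0.0678 with limma-voom. The cause of these shifts was not tested, beyond fewer libraries where one was left out. Replicate numbers did not pair the libraries (correlations of same-numbered deviations from -0.00738 to 0.0321). With a replicate block edgeR called 119 genes for niche against general macrophages of metastatic marrow and 3 for general macrophages of metastatic against normal marrow, and 0 eosinophil genes in both. No block was fitted where niche libraries of normal marrow enter, since their columns carry no title number.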
